A study of Rattus norvegicus with 19 samples.

Results

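Hippocampal RNA of rats with a single copy of the 16p11.2-like interval was compared directly with that of rats with 3 copies, the widest difference in gene dosage that the series holds. The comparison took 9 of the 19 libraries: those described as Del1 to Del4 (Del/+, n = 4, 1 copy) and those described as Dup1 to Dup5 (Dup/+, n = 5, 3 copies), chosen by the description field of each sample label. No wild-type library entered a test, and the 6 wild-type (wt) and 4 Del/Dup libraries, both with 2 copies, are given only as levels for orientation. All animals were males on the outbred Sprague Dawley background, littermates of crosses between a deletion and a duplication line made by CRISPR/Cas9 in zygotes, and are called adult by the study, with no age given in the sources used here. RNA of the hippocampus was sequenced, and each library was taken as 1 animal.

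The interval lies on rat chromosome 1, runs from *Sult1a1* to *Spn* and corresponds to the human region whose deletion and duplication are associated with autism, intellectual disability and other neurodevelopmental conditions. It is dense in genes, among them the kinases *Mapk3* (ERK1) and *Taok2*, the *Cul3* ubiquitin ligase adaptor *Kctd13*, and the presynaptic gene *Prrt2*. A gene is called dosage-sensitive when a change in its number of copies alters its function in the cell or the body. The zygotes were injected with Cas9 protein and a pair of guide RNAs, shown here because their cuts set the ends of the interval and so decide which genes changed copies. Their target sequences, 5′ to 3′ as listed by the study, with the strand and the position of the PAM (the motif that Cas9 requires beside its target) not given there, are
guide 1: gcaatctcacgtgtctgatgg
guide 2: gtgacatcgtgaccctgctgg
Each is 21 nt long. Their positions in the genome were not determined here.

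Between 16191192 and 29183777 reads were counted in genes in the Dup/+ libraries and between 24458600 and 37964381 in the Del/+ libraries. The mean log2 total was higher in Del/+ by 0.397 (two-sided exact permutation p = 0.0952, adjusted over 2 measures p = 0.0952), and by 0.518 without Del/+ replicate 2 (exact permutation p = 0.0357). Multi-mapped reads, those with several alignments, were left out of genes by the authors' counting. Their share of everything the counter listed was 45.1% to 50.5% in the Dup/+ libraries. In Del/+ it was 73.1%, 76.3%, 63.9% and 41.6% for replicates 1 to 4, so that the group held libraries both above and below all of Dup/+. The difference of 15.7 percentage points had an exact permutation p = 0.0794 (adjusted p = 0.0952), and without Del/+ replicate 4 it was 23.1 points (p = 0.0179, exact permutation). Levels below are CPM, reads scaled to a common library size after TMM normalisation, so that they compare libraries and not genes, and a fold change is Del/+ over Dup/+. A gene is said to have changed at an adjusted p under 0.05 in edgeR's quasi-likelihood test over all genes tested.

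Of 14990 genes tested, 108 changed (0.72%), 28 higher in Del/+ (0.187%) and 80 lower (0.534%). At an unadjusted p under 0.05 there were 2174 genes (14.5%), and the median log2 fold change over all genes was 0. Of the 32 genes listed for the interval, 31 were in the files and 27 had enough reads to be tested. All 27 had lower levels in every Del/+ library than in any Dup/+ library, a separation that 5.47% of all tested genes showed, and 26 of them changed, all lower in Del/+. Their median log2 fold change was -1.53, with quartiles of -1.63 and -1.48, which is a level 2.89 times higher in Dup/+. Summed over the 27 genes, the interval stood at 1657, 1474, 1440 and 1431 CPM in Del/+ replicates 1 to 4 and at 4246 to 4578 CPM in Dup/+. The 9 libraries therefore all matched their labels. DESeq2, which called 390 of all tested genes (2.6%), called the same 26, and over the alternatives that were run between 18 and 26 interval genes were called.

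**Figure D1:**
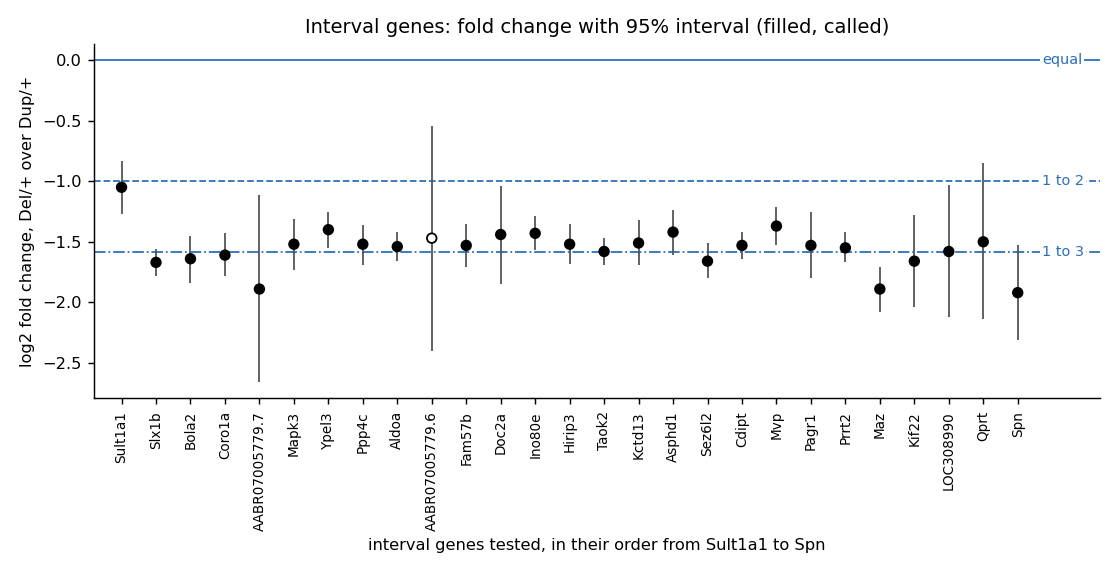
Log2 fold change (Del/+ over Dup/+) of the 27 tested interval genes in their order from Sult1a1 to Spn, with 95% intervals as bars; filled points changed and the open point did not pass the test. Lines mark equality, a ratio of 1 to 2 and a ratio of 1 to 3. The points lie between -1.92 and -1.05, around the line at -1.58 for 1 to 3, and Sult1a1 alone sits at the line for 1 to 2.

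The kinases, the phosphatase and the ubiquitin ligase adaptor of the interval were lower in Del/+ by close to the ratio of copies. *Mapk3*, which encodes the MAP kinase ERK1, stood at 60.8, 46.6, 48.5 and 41.2 CPM in Del/+ and at 154, 147, 140, 129 and 136 CPM in Dup/+. Its log2 fold change was -1.52 (SE 0.0967, adjusted p = 1.713e-06). *Kctd13*, an adaptor that brings RhoA to the *Cul3* ubiquitin ligase, was at 50.7, 37.99, 41.4 and 36.3 CPM in Del/+ and 119, 116, 123, 110 and 122 CPM in Dup/+. It differed by -1.51 on the log2 scale (SE 0.0851, adjusted p = 4.963e-07). For both genes the highest Del/+ library was replicate 1, and it stayed far below the lowest Dup/+ library. *Taok2*, a kinase upstream of p38 and JNK signalling, was at 117, 114, 99.9 and 113 CPM in Del/+ and at 323 to 338 CPM in Dup/+. Its log2 fold change of -1.58 (SE 0.0516) was that of 1 copy against 3. *Ppp4c*, the catalytic subunit of protein phosphatase 4, changed by -1.52 (SE 0.076).

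Genes of the synapse and of neuronal membranes changed to a like degree. *Prrt2*, a presynaptic regulator of transmitter release mutated in paroxysmal dyskinesia, was at 71.5, 75.7, 64.7 and 75 CPM in Del/+ and at 196 to 219 CPM in Dup/+ (log2 fold change -1.55, SE 0.0567). *Sez6l2*, a neuronal membrane protein, was at 273, 233, 257 and 223 CPM in Del/+ and 738 to 848 CPM in Dup/+ (log2 fold change -1.66, SE 0.0658). *Doc2a*, a calcium sensor for spontaneous release, had the widest spread of these genes. It was at 4.36, 7.32, 4.22 and 5.95 CPM in Del/+ and at 18.3, 13.3, 17.8, 11.3 and 13.4 CPM in Dup/+, and its log2 fold change of -1.44 (SE 0.186) had an adjusted p = 0.002447. *Doc2a* was called without any 1 library and lost its call with a term for a high multi-mapped share in the fit (-1.31, adjusted p = 0.1432 in edgeR) and with that share as a covariate (-1.45, 0.06723).

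Among enzymes of the interval other than *Sult1a1*, which is described below, *Aldoa*, *Cdipt* and *Qprt* had fold changes close to each other. *Aldoa*, the glycolytic aldolase and by far the largest contributor of reads among these genes, was at 793, 700, 681 and 672 CPM in Del/+ and 1959 to 2191 CPM in Dup/+ (log2 fold change -1.54, SE 0.0566). *Cdipt*, which makes phosphatidylinositol, was at 46.04 to 53.8 CPM in Del/+ and 137 to 150 CPM in Dup/+ (log2 fold change -1.53, SE 0.0513). *Qprt*, an enzyme of NAD synthesis, was near the limit of detection at 0.29 to 0.838 CPM in Del/+ and 1.27 to 2.04 CPM in Dup/+. The log2 fold change of *Qprt* was -1.50 (adjusted p = 0.04321), and its call was lost without any 1 of the 5 Dup/+ libraries and without Del/+ replicate 2 or 3. With the term for a high multi-mapped share it was at -0.98 (adjusted p = 0.3777 in edgeR) and with that share as a covariate at -1.28 (0.2687).

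Genes with a role in chromatin, transcription, DNA repair and mitosis were lower in Del/+ as well. *Maz*, a zinc finger transcription factor, was at 17.6, 15.01, 13.6 and 12.7 CPM in Del/+ and at 50.7 to 59.4 CPM in Dup/+ (log2 fold change -1.89, SE 0.0867). *Ino80e*, a subunit of the INO80 chromatin remodeller, was at 17.1 to 21.02 CPM in Del/+ and 49.2 to 55.7 CPM in Dup/+ (log2 fold change -1.43, SE 0.0636). *Slx1b*, the catalytic subunit of a structure-specific nuclease, was among the most even, at 12.96, 13.06, 11.73 and 13.03 CPM in Del/+ and 38.6 to 41.7 CPM in Dup/+ (log2 fold change -1.67, SE 0.0512). *Hirip3*, *Pagr1* and *Kif22*, which encode a histone chaperone partner, a partner of a histone methyltransferase complex and a mitotic kinesin, changed by -1.52, -1.53 and -1.66. Of the genes best known from leukocytes, *Coro1a*, an actin-binding coronin, changed by -1.61 and *Spn* (CD43) by -1.92 (SE 0.179). The vault protein gene *Mvp* changed by -1.37 and *Ypel3* by -1.40. The others, *Bola2*, *Asphd1*, *Fam57b* and *LOC308990*, lay between -1.64 and -1.42.

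Whether each gene departed from its number of copies was tested in the same fit against a ratio of 1 to 3. The 95% interval of the fold change held that ratio (-1.58 on the log2 scale) for 22 of the 27 genes and missed it for 5, and 22 genes lay within 0.2 of it. A departure was called for 1 gene, *Sult1a1*, which encodes a phenol sulfotransferase. All genes outside the interval being tested against equality in the same table, 0.374% of all genes were called there. *Sult1a1* was at 3.42, 3.39, 3.45 and 3.001 CPM in Del/+ and at 6.40, 7.52, 6.94, 6.36 and 7.02 CPM in Dup/+. Its log2 fold change was -1.05 (SE 0.1, 95% interval -1.27 to -0.83), an interval that holds the ratio of 1 to 2 and lies outside that of 1 to 3. The departure of 0.54 had an adjusted p = 0.04988, at the edge of the threshold, and under the threshold in 4 of the 20 alternatives that give it (adjusted p from 0.009317 to 0.9176). In each of the 9 fits without 1 library the adjusted p of the departure was above 0.05 (0.06089 to 0.1174), so that it was not called. At an unadjusted p under 0.05, 5 genes departed: *Sult1a1*, *Mvp* (0.22, adjusted p = 0.2083), *Ypel3* (0.18, 0.2496), *Ino80e* (0.15, 0.286) and *Maz* (-0.31, 0.1397). Without Del/+ replicate 1, the library with the highest interval level of its group, *Maz* was the gene called in place of *Sult1a1*.

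The levels in the groups with 2 copies put *Sult1a1* apart from its neighbours. With all 19 libraries scaled together, *Sult1a1* was at 7.31 ± 0.473 CPM (SD, n = 6) in wt, 6.83 ± 0.482 (n = 5) in Dup/+, 3.31 ± 0.204 (n = 4) in Del/+ and 3.10 ± 0.276 (n = 4) in Del/Dup. The libraries of wt and Dup/+ overlapped, those of Del/+ and Del/Dup overlapped, and the 2 pairs did not. For *Taok2* the same groups stood at 221, 330, 111 and 218 CPM, and for *Mapk3* at 94.7, 141, 49.2 and 90.9 CPM, with Del/Dup beside wt. Of the 27 interval genes, 26 had a wt mean between the means of Del/+ and Dup/+, the exception being *Sult1a1*. *Sult1a1* is the first gene of the interval on the side of *Sh2b1*, and where its own ends lie relative to the guides was not determined here.

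**Figure D2:**
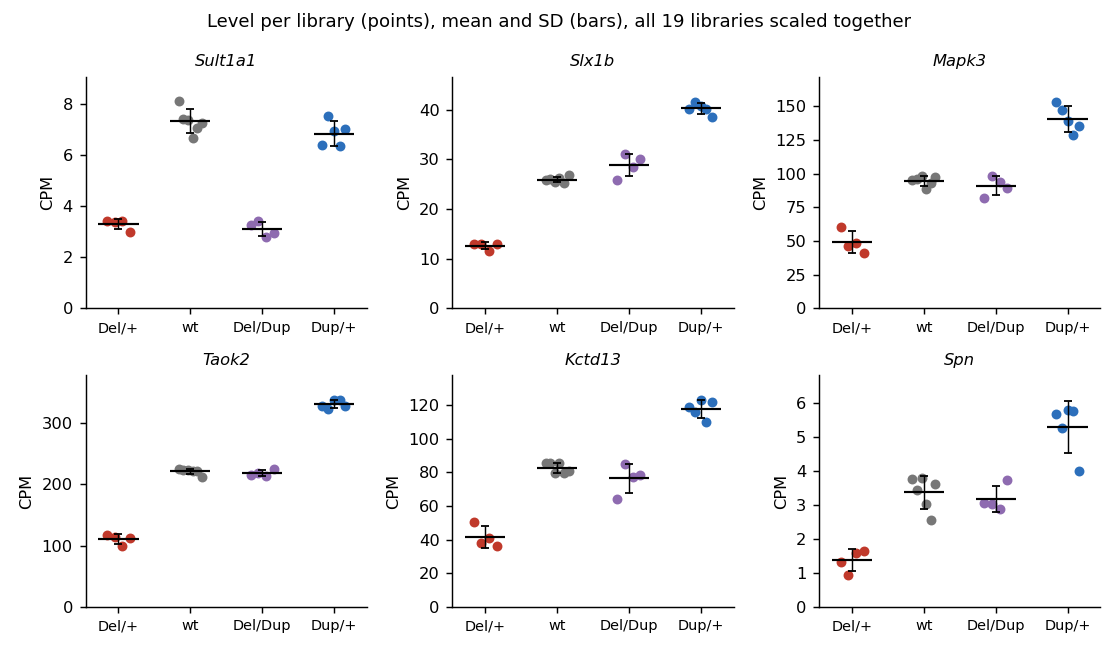
CPM per library (points) with mean and SD (bars) for 6 interval genes in Del/+ (n = 4), wt (n = 6), Del/Dup (n = 4) and Dup/+ (n = 5), each axis starting at 0. Slx1b, Mapk3, Taok2, Kctd13 and Spn rise from Del/+ to Dup/+ with the 2-copy groups between; for Sult1a1, Dup/+ lies with wt (6.83 and 7.31 CPM) and Del/Dup with Del/+ (3.10 and 3.31 CPM).

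The remaining genes of the interval had few or no reads. *AABR07005779.6*, at 0.0346 to 0.433 CPM in Del/+ and 0.476 to 0.901 CPM in Dup/+, was the one tested gene that did not pass (log2 fold change -1.47, SE 0.428, adjusted p = 0.1553), and its 95% interval of -2.40 to -0.54 holds the ratio of copies. *AABR07005779.7* passed (-1.89, SE 0.355, adjusted p = 0.0348) and failed without any 1 of 7 libraries. *Tbx6*, a mesodermal transcription factor, had 4, 13, 8, 8 and 7 reads in Dup/+ and 3, 4, 4 and 5 in Del/+, too few to be tested. *Gdpd3*, *Zg16* and *LOC102552638* had 0 to 6 reads in each library. *Tmem219* was not found under that symbol and was not analysed here.

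One gene absent from the interval list behaved as its members did, and it was singled out after its values were seen. *AABR07005779.2*, an Ensembl gene named after the same contig as 2 listed genes, was at 4.46, 3.84, 3.29 and 3.41 CPM in Del/+ and at 11.7, 10.7, 10.7, 11.3 and 11.2 CPM in Dup/+. Its log2 fold change was -1.57 (SE 0.0997, adjusted p = 1.677e-06), and it was called without any 1 of the 9 libraries. It was at 7.23 CPM in wt and 6.47 CPM in Del/Dup. Other genes named after that contig did not follow it: *AABR07005779.1*, *AABR07005779.3* and *AABR07005779.5* had log2 fold changes of 0.16, -0.03 and -0.14. Where *AABR07005779.2* lies was not determined here, and it is counted below among the genes outside the list.

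Genes next to the interval, which have 2 copies in both groups, were compared to ask whether expression at its borders moved with it. Of 19 listed flanking genes 15 were tested and 0 changed in edgeR, with 4 at an unadjusted p under 0.05 (14.5% of all genes) and 3 called by DESeq2 (*Tbc1d10b*, *Eif3c* and *Sgf29*), which called 2.6% of all genes. *Sgf29*, a histone-reading subunit of the SAGA complex, was at 8.82, 7.98, 9.28 and 9.19 CPM in Del/+ and 6.81, 7.21, 6.10, 6.59 and 7.18 CPM in Dup/+ (log2 fold change 0.38, SE 0.0835, adjusted p = 0.06939). *Tbc1d10b*, a Rab GTPase-activating protein, was at 124 to 130 CPM in Del/+ and 136 to 154 CPM in Dup/+ (-0.20, SE 0.0497, adjusted p = 0.1066). *Eif3c*, a translation initiation factor subunit, was at 201 to 223 CPM and 226 to 246 CPM (-0.17, SE 0.0456, adjusted p = 0.1319). *Itgal*, an integrin of leukocytes, was at 1.98 to 2.46 CPM and 1.197 to 1.74 CPM (0.52, SE 0.149, adjusted p = 0.1541). These 4 genes had values in both directions. The summed level of the 15 genes was 735.5 to 760.3 CPM in Del/+ and 767.4 to 797.3 CPM in Dup/+, with no overlap. Groups did not overlap in these 4 and in *Cd2bp2*, 5 of the 15 genes, beside 5.47% of all tested genes. The immediate neighbour *Cd2bp2* was at 133 to 138 CPM in Del/+ and 130 to 132 CPM in Dup/+ (0.05, SE 0.0363, adjusted p = 0.5936), and *Sh2b1*, on the other side, differed by -0.04 (SE 0.0345), while *Tufm*, *Atxn2l*, *Cln3*, *Dctpp1* and *Sephs2* lay between -0.03 and 0.05. *Apobr*, *Mylpf* and *Sept1* had log2 fold changes of 0.11, 0.16 and 0.21 and *Zfp771* of -0.40 (SE 0.191), the last with one Dup/+ library, replicate 3, at 16.5 CPM and the others at 8.14 to 9.72.

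The comparison was then extended along the chromosome by the order of genes in the GRCr8 assembly, which is not the assembly of the files and was used for order alone. There, 13412 of the 14990 tested genes (89.5%) could be placed by symbol. Among the 50 nearest tested genes, 25 on each side, 1 changed (2%), and among those ranked 26 to 100 on either side 3 of 150 changed (2%). Among those ranked beyond 100 and up to 500, 12 of 800 changed (1.5%), beside 3 of 619 farther along the chromosome (0.485%) and 51 of 11769 on other chromosomes (0.433%). The 16 within rank 500 were in both directions, 10 lower and 6 higher in Del/+, and no test was made of the difference in shares. At an unadjusted p under 0.05 were 20% of the genes up to rank 25, 18.7% of those ranked 26 to 100 and 15.5% of those beyond 100 and up to 500, beside 14.5% of all genes. The nearest was *Zkscan2*, a zinc finger gene ranked 17 on the *Sh2b1* side, at 10.95 to 12.6 CPM in Del/+ and 14.2 to 16.1 CPM in Dup/+. On the other side, *Tgfb1i1* (Hic-5, a focal adhesion adaptor), ranked 39, was at 6.60, 7.98, 8.01 and 8.44 CPM in Del/+ and 16.3, 13.8, 13.2, 15.3 and 12.6 CPM in Dup/+. *Tgfb1i1* was lower in Del/+ (log2 fold change -0.87, SE 0.0975, adjusted p = 0.000641) and was called without any 1 of the 9 libraries. Over fits without 1 library, the number within rank 500 went from 8 to 17, and under 11 without Dup/+ replicates 1, 2, 4 or 5 or Del/+ replicates 2, 3 or 4.

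**Figure D3:**
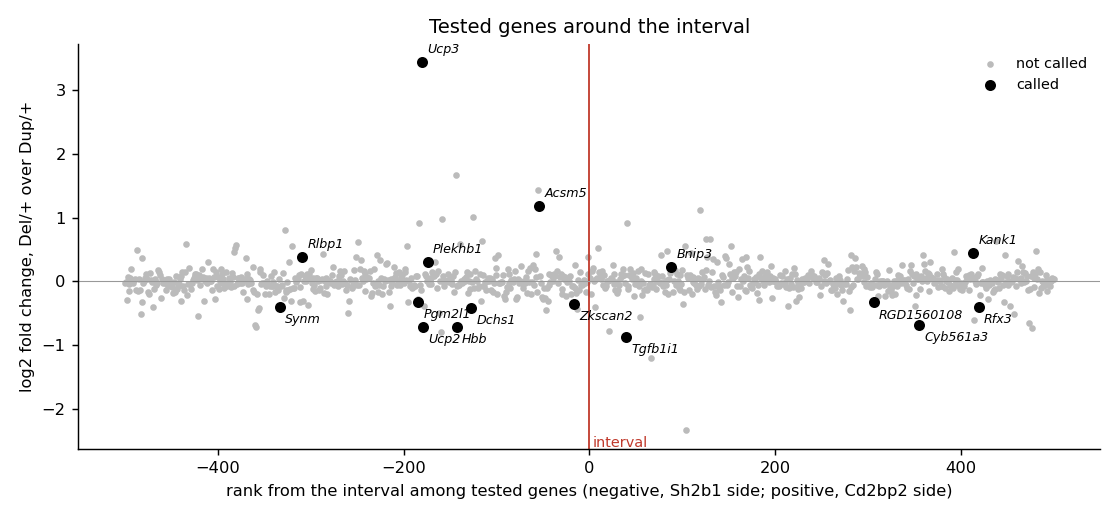
Log2 fold change (Del/+ over Dup/+) of the 1000 tested genes up to rank 500 on either side of the interval, against their rank in the GRCr8 gene order (negative, Sh2b1 side; positive, Cd2bp2 side). Black points are the 16 genes that changed, 10 lower and 6 higher; Ucp3 at 3.44 is farthest from 0, and points lie on both sides of 0 near the interval and far from it.

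Beyond the interval list 82 genes changed, 54 lower and 28 higher in Del/+, and the median size of the change was 0.47 on the log2 scale (1.39-fold). Differences were mostly small: 44 of the 82 lay under 0.5 and 14 over 1 on the log2 scale. The libraries of the groups did not overlap for 81 of them, a separation that 5.47% of all tested genes showed. DESeq2 called 364 genes outside the interval. The count of 82 fell to 27 without Del/+ replicate 2, to 43 without Del/+ replicate 4, and to between 32 and 45 without any 1 Dup/+ library. With a term for libraries with more than 55% multi-mapped reads it was 23, with that share as a covariate 9. Fold changes of the 82 genes stayed about as large in these fits: 82 kept their sign in each, the median ratio to the former log2 fold change was 1.03 with the term and 1.02 with the covariate, and 14 and 2 genes moved by over 1.5 times. In wt, 65 of the 82 genes (79.3%) had a mean between those of Del/+ and Dup/+, beside 34.3% of all tested genes, and since the 82 were chosen for separated groups nothing is read from that share. The wt mean was nearer to Dup/+ for 57 genes and nearer to Del/+ for 25.

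The 10 genes outside the list with the smallest p lower in Del/+ were mostly changed by less than 1 on the log2 scale. *Tgfb1i1* is given above. *Synm*, the intermediate filament protein synemin, was at 103, 91.6, 108 and 102 CPM in Del/+ and 125.5, 139, 140, 135 and 124 CPM in Dup/+ (log2 fold change -0.40, SE 0.057, adjusted p = 0.00723). *Moxd1*, a monooxygenase of the dopamine beta-hydroxylase family, was at 29, 31.2, 26.96 and 36.4 CPM in Del/+ and 45.03 to 50.1 CPM in Dup/+ (-0.62, SE 0.0779, adjusted p = 0.00186). *Rad21l1*, a meiotic cohesin subunit, was low in both groups, at 0.311, 0.331, 0.343 and 0.406 CPM in Del/+ and 1.196, 1.52, 1.496, 0.925 and 1.63 CPM in Dup/+ (-1.93, SE 0.234, adjusted p = 0.001393). *AABR07070225.1* (-2), *Samd14* (-0.70), *RF01268* (-0.47) and *RGD1560108* (-0.33) were also among the 10, with *AABR07005779.2*. All 10 were called without any 1 library, while 8 lost their call with the term for a high multi-mapped share, 7 with that share as a covariate and 10 with the levels of neighbouring-region markers as a covariate (described below). *Synm* was at -0.39 and -0.37 in the first and the second of these fits, and *Moxd1* at -0.39 and -0.50. *RF01268* is the name of a family of small RNAs with several copies, and its value is uncertain.

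The 10 genes with the smallest p higher in Del/+ are described next. *Kank1*, an adaptor that regulates actin at adhesions, was at 41.5, 44.97, 43.5 and 43.6 CPM in Del/+ and 32.2, 30.5, 29.7, 33.5 and 32.7 CPM in Dup/+ (log2 fold change 0.45, SE 0.0475, adjusted p = 0.00038). *Ucp3*, a mitochondrial carrier related to the uncoupling protein of brown fat, had 26, 24, 26 and 19 reads in Del/+ and 3, 4, 0, 1 and 0 reads in Dup/+. Its log2 fold change of 3.44 (SE 0.511, adjusted p = 0.008757) was 2.60 at a prior count of 2, since a gene this low depends on that choice. In wt, *Ucp3* ranged from 0.238 to 1.17 CPM. *Efhd1*, a calcium-binding protein of mitochondria, was at 26.7 to 30.6 CPM in Del/+ and 20.5 to 23.1 CPM in Dup/+ (0.38, SE 0.0567). *Slc16a1* (MCT1), a lactate and pyruvate transporter, was at 69.0, 63.7, 56.2 and 59.4 CPM in Del/+ and 47.4 to 50.6 CPM in Dup/+ (0.34, SE 0.056). *Adcy8*, an adenylyl cyclase stimulated by calcium, was at 29.6, 38.6, 31.2 and 32.3 CPM in Del/+ and 22.1 to 24.8 CPM in Dup/+ (0.49, SE 0.0744). *Mybpc1* (1.48), *Klhdc7a* (1.01), *Flt3* (0.63), *Plekhb1* (0.31) and *Ptpn4* (0.25) completed the 10. Of these, *Flt3* lost its call without Dup/+ replicate 2 or Del/+ replicate 2, *Slc16a1* without Dup/+ replicate 5 or Del/+ replicate 2, *Klhdc7a* without Dup/+ replicates 1, 3 or 5 or Del/+ replicate 4, and *Ptpn4* without any 1 of those 4 or Del/+ replicate 2. With either form of the multi-mapped share in the fit, *Kank1* was the 1 gene of these 10 that was called, and with wt replicate 5 counted as Dup/+ 5 of the 10 were called, *Ucp3*, *Efhd1* and *Adcy8* not among them. With the term and with the covariate, the log2 fold changes of *Ucp3* were 2.88 and 3, those of *Efhd1* 0.28 and 0.31 and those of *Adcy8* 0.47 and 0.45. With neighbouring-region markers as a covariate, *Adcy8* was at 0.04 (adjusted p = 0.9851 in edgeR), *Mybpc1* at 0.28 (0.9722), *Plekhb1* at 0.13 (0.9311), *Flt3* at 0.36 (0.9191), *Efhd1* at 0.25 (0.9101) and *Klhdc7a* at 1.95 (0.06736). In the same fit *Kank1* was at 0.34 (adjusted p = 0.9035 in edgeR), *Ptpn4* at 0.22 (0.9042), *Slc16a1* at 0.47 (0.8809) and *Ucp3* at 3.73 (0.8809).

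**Figure D4:**
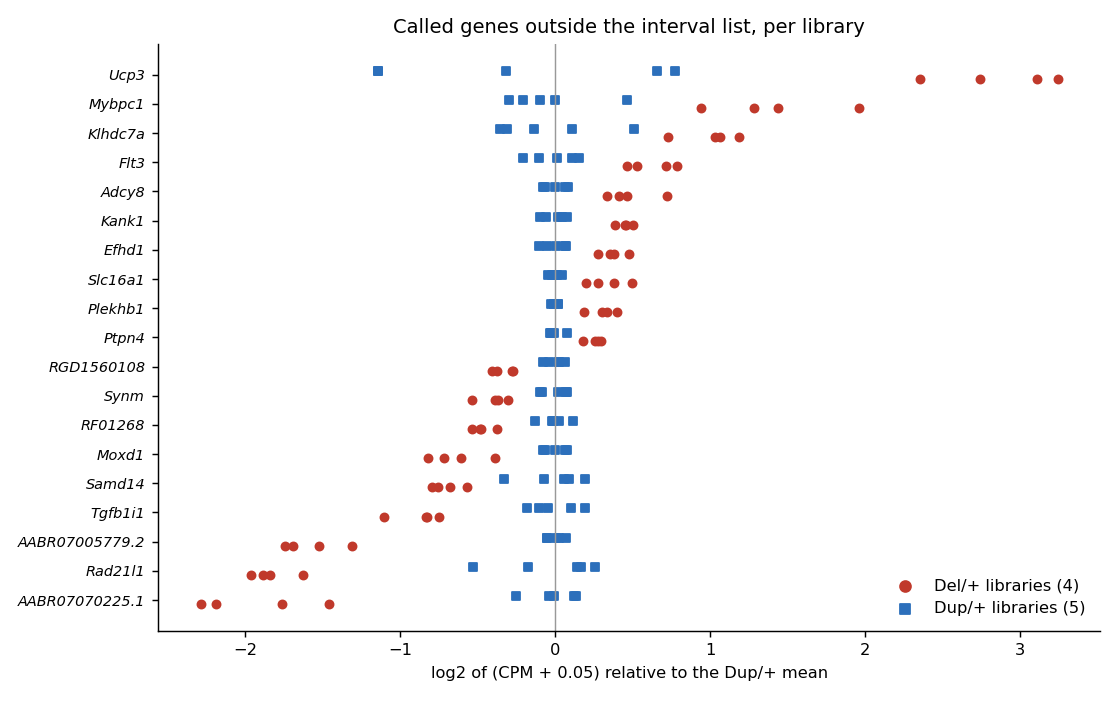
Log2 level of each library relative to the Dup/+ mean, on CPM with 0.05 added, for 19 of the 20 genes outside the interval list that have the smallest p, 10 in each direction; circles are the 4 Del/+ and squares the 5 Dup/+ libraries. In no gene do circles and squares overlap; most differences are under 1, and Ucp3, Rad21l1, AABR07070225.1 and AABR07005779.2 are over 1.5.

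Genes that could be expected to respond to the dosage of *Mapk3* or *Kctd13* were counted next, from lists put together with earlier results of these data known. In the ERK pathway list, from receptors' adaptors to feedback inhibitors, 38 genes were tested and 0 changed. At an unadjusted p under 0.05 were 12, beside 14.5% of all genes. DESeq2 called 1, *Dusp4*, beside 2.6% of all genes. *Dusp4*, a phosphatase that inactivates ERK, had a log2 fold change of -0.34 (adjusted p = 0.07854). The 22 genes of the RhoA pathway held 0 changed genes, 5 at an unadjusted p under 0.05 and 0 called by DESeq2. *Cul3* itself was at 208 to 212 CPM in Del/+ and 195 to 212 CPM in Dup/+ (0.05, SE 0.0393), and the *Kctd13* paralogs *Kctd10* and *Tnfaip1* differed by -0.01 (SE 0.0501) and 0.01 (SE 0.0513). Of 25 paralogs of interval genes, 0 changed in edgeR, 6 had an unadjusted p under 0.05 and 2 were called by DESeq2, *Ypel5* (0.15) and *Doc2b* (-0.33, adjusted p = 0.09612 in edgeR). Of 24 partners of interval proteins in the *Cul3*, phosphatase 4, INO80, methyltransferase and nuclease complexes, 0 changed, 2 had an unadjusted p under 0.05 and 0 were called by DESeq2. The medians of these lists lay between -0.02 and 0.02, beside 0 for all genes.

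Of 49 synaptic genes 1 changed: *Gabrb2*, a subunit of the GABA-A receptor, was at 87.5, 99.1, 91.9 and 96.4 CPM in Del/+ and 77.0, 62.2, 77.2, 68.6 and 75.2 CPM in Dup/+ (log2 fold change 0.38, SE 0.0659, adjusted p = 0.02192). The call was lost without Dup/+ replicate 4, without Del/+ replicate 2 or 4 and with either form of the multi-mapped share in the fit, where the log2 fold change was 0.42 and 0.40. With neighbouring-region markers as a covariate, the log2 fold change of *Gabrb2* was 0.02 (adjusted p = 0.9944 in edgeR). Of the 49, 14 genes had an unadjusted p under 0.05, 5 higher and 9 lower in Del/+, beside 14.5% of all genes, while DESeq2 called 7, beside 2.6% of all genes. Immediate-early genes, which report recent neuronal activity, held 0 changed genes of 18 in edgeR and in DESeq2, with 1 at an unadjusted p under 0.05. The 12 tested heat shock genes held 0 in both tools and 1 at an unadjusted p under 0.05. Circadian clock genes held 0 of 16 in edgeR, 6 at an unadjusted p under 0.05 and 2 called by DESeq2 (*Nr1d1*, 0.29, and *Per2*, -0.30). Of 12 glucocorticoid targets 0 changed in edgeR, 6 had an unadjusted p under 0.05, all lower in Del/+, and DESeq2 called *Fkbp5* (-0.30, adjusted p = 0.09879 in edgeR). The summed level of these targets was 569.2 to 612.4 CPM in Del/+ and 613.3 to 714.7 CPM in Dup/+, with no overlap, and its part in the other results was not tested. Of 14 genes named by the study from these libraries, 8 were tested and 3 changed, beside 0.72% of all genes: *Rad21l1* and *Ucp3*, given above, and *Ptx3*, a secreted pattern recognition protein, at 0.579 to 1.03 CPM in Del/+ and 1.39 to 1.86 CPM in Dup/+ (-1.03, SE 0.2, adjusted p = 0.03984). Having been chosen on these libraries, they are not independent evidence, and *Ptx3* lost its call in 8 of 9 fits without 1 library. The other 5, *Mael* (-1.83), *Cdh1* (1.24), *Chad* (0.36), *Itgb6* (0.22) and *Atp1a4* (-0.06), did not pass. The study reported *Itgb6* as raised and *Atp1a4* as lowered in both models, which implies no difference between Del/+ and Dup/+ for these genes.

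Markers of cell types and of tissue next to the hippocampus were counted because in whole tissue fewer cells of a type and less RNA per cell cannot be told apart. Of 6 red blood cell genes 3 changed, all lower in Del/+, beside 0.534% of all genes: both *Hba-a2* genes (alpha globin, -0.76 and -0.72) and *Hbb* (beta globin, -0.72, adjusted p = 0.0491). Their summed level was 129, 105, 112 and 166 CPM in Del/+ and 206, 219, 182, 204 and 247 CPM in Dup/+, with no overlap. The wt means of the 3 genes, 33.4, 75.5 and 23.9 CPM, lay near those of Del/+ (31.3, 67.8 and 24.7). The alpha globin genes are near-identical copies, and reads that align to several were left out of the counts, so that their values are uncertain. *Hbb* lost its call in 8 of 9 fits without 1 library, both *Hba-a2* genes lost theirs without Del/+ replicate 2, and the less changed of them also without Dup/+ replicate 2. With the term for a high multi-mapped share the 3 were at -0.38, -0.37 and -0.27 and none was called, and with that share as a covariate they were at -0.51, -0.48 and -0.46, again with none called.

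Markers of neighbouring brain regions (striatum, thalamus, cortex, hypothalamus) held 0 changed genes of 11 in edgeR. At an unadjusted p under 0.05 were 5, all higher in Del/+, beside 14.5% of all genes. DESeq2 called 1, *Prkcd*, beside 2.6% of all genes. *Prkcd*, a kinase abundant in thalamus, was at 18.1, 14.1, 28.3 and 7.49 CPM in Del/+ and 5.36 to 8.44 CPM in Dup/+ (log2 fold change 1.32, SE 0.295, adjusted p = 0.07175). The list's summed level was 131.5 to 153 CPM in Del/+ and 99.3 to 117.5 CPM in Dup/+, again with no overlap, and its median log2 fold change was 0.20. Of 13 markers of hippocampal neurons 0 changed in edgeR and 7 had an unadjusted p under 0.05, beside 14.5% of all genes. Of these 7, 6 were lower and 1 was higher in Del/+. Log2 fold changes of the 13 ran from -0.35 to 0.72, with a median of -0.17. *Prox1*, the transcription factor of dentate granule cells, was the one that DESeq2 called, at 104 to 135 CPM in Del/+ and 138 to 184 CPM in Dup/+ (-0.35, adjusted p = 0.1098 in edgeR). With the mean log2 level of the neighbouring-region list as a covariate, chosen after seeing the data, 18 genes were called, all in the interval, and 0 outside it, with 814 genes at an unadjusted p under 0.05. *Mapk3*, *Sult1a1*, *Pagr1*, *Kif22* and *Spn* were among the interval genes that lost their call in that fit. *Kif22* was at -1.76 there (adjusted p = 0.8154 in edgeR), beside -1.66 without the covariate, and *Spn* at -1.72 (0.8546), beside -1.92. Fold changes there were -1.1 for *Mapk3* (adjusted p = 0.09379 in edgeR), -1.39 for *AABR07005779.2* (0.1004), -1.08 for *Tgfb1i1* (0.5274) and 0.34 for *Kank1* (0.9035), beside -1.52, -1.57, -0.87 and 0.45 without the covariate. Besides *Gabrb2*, *Adcy8* and *Mybpc1*, given above, *Hbb* was at -0.28 (adjusted p = 0.9682 in edgeR), the *Hba-a2* genes at -0.54 and -0.41, *Synm* at -0.23, *RGD1560108* at -0.20, *Zkscan2* at -0.16 beside -0.35, and *Qprt* at -0.47, while *Doc2a* was at -2.38. Other genes outside the interval were at least as far from 0 as before, though not called. *Rad21l1* was at -1.96 beside -1.93, *AABR07070225.1* at -2.8 beside -2 and *Samd14* at -0.94 beside -0.70. *Moxd1* was at -0.67 beside -0.62, *Slc16a1* at 0.47 beside 0.34 and *Ucp3* at 3.73 beside 3.44. Of the 82 genes called outside the interval, 79 kept their sign with the covariate, 48 had a log2 fold change that moved by over 1.5 times and 28 one under 0.5 times its former size, with a median ratio of 0.611. Of the 26 called interval genes, 26 kept their sign, 2 moved by over 1.5 times and 1 was under 0.5 times, with a median ratio of 0.958. The summed level of that list did not overlap between the groups, so that the fit cannot clearly separate the list's level from genotype. Calls were lost there also where fold changes stayed about as large, and the list's part in the results outside the interval was not tested.

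Choroid plexus genes, markers of the tissue that makes cerebrospinal fluid, were high in single libraries rather than in a group. Their summed level was 1807 CPM in Del/+ replicate 3 and 146 to 295 in the others of that group, and 674 CPM in Dup/+ replicate 2 and 153 to 283 in the others. *Ttr*, their most abundant gene, was at 1128 CPM and 352 CPM in those 2 libraries and 2.40 to 88.6 CPM elsewhere. The 13 genes had a median log2 fold change of 1.22, 0 changed in edgeR, 1 had an unadjusted p under 0.05 and DESeq2 called 1, *Calml4* (-0.85). Oligodendrocyte genes summed to 8503 and 9728 CPM in Del/+ replicates 2 and 4 and to 6521 to 7524 CPM in the other 7 libraries, and 0 of 15 changed in either tool (2 at an unadjusted p under 0.05). Of 10 astrocyte, 12 microglia, 12 vascular and meningeal and 22 motile cilia genes, 0 changed in edgeR, with 2, 1, 3 and 1 at an unadjusted p under 0.05, and DESeq2 called 1, the meningeal *Dcn*. Beside these counts, 14.5% of all tested genes had an unadjusted p under 0.05, and DESeq2 called 2.6%. The part of these cell types in the results outside the interval was not tested beyond the fits given.

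**Figure D5:**
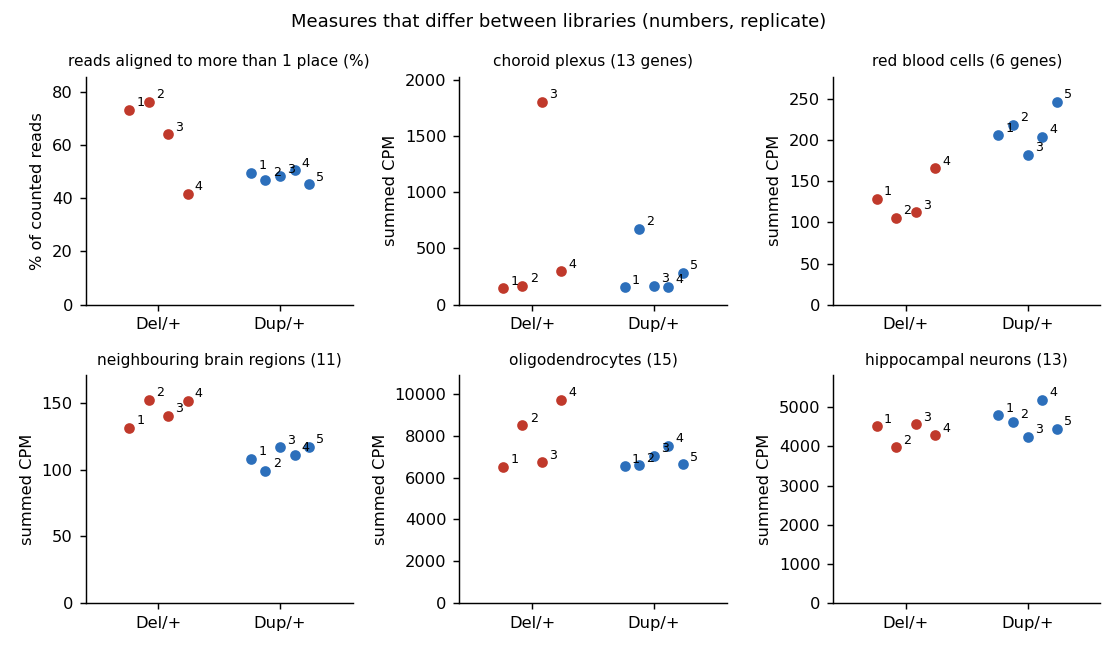
Multi-mapped reads (percent of everything the counter listed) and summed CPM of 5 marker lists in each of the 4 Del/+ and 5 Dup/+ libraries, numbered by replicate, all axes starting at 0. Red blood cell and neighbouring-region markers separate the groups without overlap; choroid plexus markers are highest in Del/+ replicate 3 (1807 CPM) and Dup/+ replicate 2 (674 CPM), and Del/+ replicate 4 has the lowest multi-mapped share (41.6%).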

How the data were processed

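The deposited values are raw counts of reads per Ensembl gene (release 96), 1 library per file, that the authors made from stranded single-end libraries aligned with Hisat2 to the rat assembly Rno6 and counted with HTSeq-count. The labels describe removal of rRNA, whereas their molecule field and the study name polyA RNA. The 5 summary lines of the counter stayed out of library sizes and tests: reads in no gene made up 6.94% to 16.1% of what the counter listed for a library, ambiguous reads 0.142% to 0.295%, and multi-mapped reads are given in the results. Of 32623 genes, 23148 had a read in the 9 libraries and 14990 passed filterByExpr. Counts were fitted in R 4.3.3 with edgeR 4.0.16 and its quasi-likelihood test (TMM scaling, a mean per group, no covariate, prior count 0.125), adjusted by Benjamini-Hochberg over all genes. The study itself used FCROS and DESeq2. SEs were derived from the F statistic. The ratio of 1 copy to 3 was tested with the log copy number as an offset. DESeq2 1.42.0, other scalings and filters, covariates, the replicate block and fits without each library were the alternatives. The biological coefficient of variation was 0.0969. Replicates of a group differed by a chi-square per degree of freedom of 7.79 to 61.1, so that none were taken for the same library, and p-values measure the spread between these animals. The computations were tested on simulated data. Genes, lists, tests and the rule for naming genes were chosen with earlier results of these data known. The rule named every tested interval and flanking gene, the 10 genes with the smallest p in each direction outside them, called members of the other lists, *Cul3*, *Kctd10*, *Tnfaip1* and genes that the study named; other genes were chosen after their values were seen, and some that the rule named are not reported here. Levels in wt and Del/Dup come from a separate scaling of all 19 libraries. The library described as wt5 is labelled Dup/+ in its genotype field and was counted as wt by its description; its *Taok2* level was 221.2 CPM, beside 212.2 to 224.3 in the other wt and 322.1 to 337.5 in the Dup/+ libraries. Gene order is that of GRCr8, and no Rno6 genome was used here.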

Additional observations from a re-analysis of the deposited data

Results flagged for a closer look

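Of 198 groups of 4 or 5 libraries examined, 99 measures in each genotype, 11 had a highest or lowest library apart from the others by Dixon's criterion (5.56%); chance flags about 1 in 20. Choroid plexus markers summed to 1807 CPM in Del/+ replicate 3 (145.9 to 295.1 in the others) and to 673.5 CPM in Dup/+ replicate 2 (152.7 to 283.1). *Itgb6* was at 4.085 CPM in Del/+ replicate 3 (1.21 to 1.568), and RhoA pathway genes summed to 3375 CPM in that library (3270 to 3283). *Slx1b* was lowest there, at 11.73 CPM (12.96 to 13.06). *Sult1a1* was lowest in Del/+ replicate 4, at 3.001 CPM (3.39 to 3.452). In Dup/+ replicate 3, *Ypel3* was highest at 151 CPM (127.7 to 132.8) and *Zfp771* at 16.51 CPM (8.142 to 9.717). *Ptpn4* was highest in Dup/+ replicate 2, at 205.2 CPM (189.6 to 193.5). Immediate-early genes summed to 860.1 CPM in Dup/+ replicate 4 (662.2 to 715.2), and circadian clock genes to 1205 CPM in Dup/+ replicate 5 (1244 to 1257).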

How the results depend on the processing

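The direction of every called gene named by the rule was the same in the alternatives that gave it a value. The number of interval genes called stayed within 1.5 times of 26 (18 to 26). Other counts moved. The total of 108 became 390 in DESeq2, 43 with a term for a high multi-mapped share, 32 with that share as a covariate, 18 with neighbouring-region markers as a covariate, and 50 to 132 without 1 library. The 82 genes outside the interval became 364, 23, 9 and 0 in the same fits, 134 with no filter on low counts, and 27 to 106 without 1 library. Of these 82, DESeq2 shared 81; log2 fold changes of the 82 had a median ratio to their former size of 1.03 with the term, 1.02 with the share covariate and 0.611 with the neighbouring-region covariate. Called list members became 24 in DESeq2, 13 with no filter, 3 with a stricter filter, 12 with all 19 libraries, 1 with the term, 0 with either covariate, and 2 to 10 without 1 library. The 16 neighbours became 40 in DESeq2, 10 with wt replicate 5 counted as Dup/+, 4 with the term, 2 and 0 with the covariates, and 8 to 17 without 1 library. Flanking calls became 3 in DESeq2 and 1 with all 19 libraries. Departures from copy number became 0 with RLE scaling, a stricter filter, the term, either covariate or *Ttr* as a covariate, and 0 to 1 without 1 library. The interval median became -1.45 with wt replicate 5 as Dup/+, -1.6 and -1.46 with the share and the neighbouring-region covariates, and -1.6 to -1.51 without 1 library. The multi-mapped difference ranged from 11.5 to 23.1 points and the log2 total from 0.257 to 0.518 without 1 library. The covariate of neighbouring regions and the alternatives for the lists, neighbours and totals were chosen after seeing the data, and the causes of these shifts were not tested. The summed level of neighbouring-region markers did not overlap between the groups, so that the fit with them cannot clearly separate their level from genotype.

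Replicate numbers gave no clear pairing of the libraries: correlations of same-numbered deviations were 0.108, -0.165, -0.126 and 0.0932. The Dup/+ library with the highest correlation had the same number for Del/+ replicates 1 and 4 and another number for replicates 2 and 3. With the numbers as a replicate block, 40 genes were called, 18 outside the interval, 3 list members, 6 neighbours and 0 departures, *Doc2a* (-1.47, adjusted p = 0.05267 in edgeR), *Gabrb2* (0.4, 0.1191) and *Adcy8* (0.51, 0.06774) were not called, *Atxn2l* was at 0 and *Atp1a4* at 0.09.

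Some uncalled genes changed sign, not all of them near equality in the main fit. With wt replicate 5 as Dup/+, *Dctpp1* was at -0.02 and *Tnfaip1* at -0.01. With the share term, *Tufm* was at -0.05, *Itgb6* at -0.2 and *Tnfaip1* at -0.06, and with the share covariate *Tufm* was at -0.03 and *Tnfaip1* at -0.05. With the neighbouring-region covariate, *Sept1* was at -0.05, *Sephs2* at -0.06, *Sh2b1* at 0, *Chad* at -0.9, *Atp1a4* at 1.58, *Tnfaip1* at -0.12 and *Kctd10* at 0.04. Without 1 library, *Atp1a4* ranged from -0.29 to 0.15, *Atxn2l* from -0.05 to 0.02, *Cln3* from -0.04 to 0.04, *Dctpp1* from -0.17 to 0.22, *Itgb6* from -0.36 to 0.4, *Kctd10* from -0.04 to 0.02, *Tnfaip1* from -0.02 to 0.04 and *Tufm* from -0.01 to 0.04. Genes with few reads, among them *Tbx6*, could not be tested at this depth.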

Other observations

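Along the gene order of GRCr8, 4 of the called genes lay among 11 consecutive ranks on the *Sh2b1* side of the interval, in both directions, and were picked out after their values were seen. *Plekhb1* (rank 174) was higher in Del/+ by 0.31, *Ucp2* (rank 179) was lower (-0.71), *Ucp3* (rank 180) was higher (3.44) and *Pgm2l1* (rank 184) was lower (-0.32). *Ucp2*, a mitochondrial carrier and the neighbour of *Ucp3*, was at 18.5, 11.04, 17.6 and 19.4 CPM in Del/+ and 29.8, 28.7, 24.4, 27.4 and 26.3 CPM in Dup/+ (SE 0.131, adjusted p = 0.03344 in edgeR). With neighbouring-region markers as a covariate, chosen after seeing the data, *Ucp2* was at -0.01 (adjusted p = 0.9995 in edgeR), *Pgm2l1* at -0.08 and *Plekhb1* at 0.13. *Ucp3* was at 3.73 in that fit, not called (adjusted p = 0.8809 in edgeR). In wt and Del/Dup, *Ucp2* had means of 27.4 and 20.8 CPM.

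The called gene whose groups overlapped, *AABR07027545.1*, was present or nearly absent by animal. It had 174, 208, 141, 0 and 136 reads in Dup/+ replicates 1 to 5 and 2, 0, 3 and 2 reads in Del/+, and ranged from 0 to 7.25 CPM in wt, so that its fitted fold change is not given. *Nectin1*, a cell adhesion gene of synapses, was at 84.0, 68.5, 83.4 and 63.8 CPM in Del/+ and 107, 120, 114, 156 and 149 CPM in Dup/+ (log2 fold change -0.79, SE 0.123, adjusted p = 0.01207 in edgeR). *Scn4b*, a beta subunit of sodium channels abundant in striatum and thalamus, was at 50.1, 67.5, 53.7 and 64.5 CPM in Del/+ and 29.4 to 46.2 CPM in Dup/+ (0.71, adjusted p = 0.01987 in edgeR). *Plcb4*, a phospholipase abundant in thalamus, was at 26.03, 40.96, 34.5 and 28.7 CPM and at 18.9 to 23.3 CPM (0.63, adjusted p = 0.0348 in edgeR). With the same covariate, *Nectin1* was at -0.49, *Scn4b* at 0.36 and *Plcb4* at -0.12, of opposite sign (adjusted p = 0.9123, 0.9311 and 0.9722 in edgeR). These genes were chosen after their values were seen.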
